A study of Homo sapiens with 6 samples.

Results

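Transcripts of 8 genes of fibroblast growth factor (FGF) signalling were followed across plating density in MCF10A, an immortalised human breast epithelial cell line that does not form tumours: the receptors FGFR1, FGFR2, FGFR3 and FGFR4, the kinase-less receptor FGFRL1, the ligands FGF2 and FGF5, and the carrier protein FGFBP1. They are 8 of 19775 genes and 32 of 41091 probe sets with 1 gene symbol. They were chosen by their log2 ratios across the same densities, so their values are given as a description, and counts of them past a threshold support nothing. The cells were seeded at 50K, 100K, 200K, 400K, 600K or 800K per 35 mm dish, which spans 16-fold, and harvested for RNA 24 h later. All dishes received the same medium with 10 μg/ml insulin, 20 ng/ml EGF, 5% horse serum, 100 ng/ml cholera toxin, 0.5 μg/ml hydrocortisone and 100 μg/ml gentamicin, and no FGF is named among its supplements. An Affymetrix HG-U133 Plus 2 array was run for each density, 6 in all, so no value has a replicate and the small number of arrays sets the precision. The deposited values were divided, probe set by probe set, by those of the 50K array, and show changes but no level, so receptors cannot be ranked by abundance.

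FGFs bind receptor tyrosine kinases together with heparan sulfate, and the bound receptors pair and activate the RAS and ERK cascade. In epithelia FGFR2 and FGFR3 are often made as epithelial splice forms, and that of FGFR2 answers to ligands from the stroma. FGFR3 is known from the layers of stratified epithelia above the basal cells. FGF2 is a heparin-binding mitogen that is stored in the matrix, and FGFBP1 is a secreted protein that binds matrix-held FGFs and releases them. FGFRL1 binds FGFs but has no tyrosine kinase domain. FGF5 is known as a regulator of the hair cycle, and FGFR4 as a receptor of liver metabolism.

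The promoters below come from RefSeq (GRCh38.p14), as 250 bases before and 50 after a gene's start. They are shown for the members whose values changed most in either direction, FGFR3 and FGFBP1 (higher with density) and FGF2 and FGFRL1 (lower). The motif GGGCGG, known as a binding site of SP1-type factors, is in capitals wherever it occurs on either strand (CCGCCC on the printed strand). FGFR3 lies on the plus strand at chr4:1793043-1793342, FGFBP1 on the minus strand at chr4:15938691-15938990, FGF2 on the plus strand at chr4:122826581-122826880 and FGFRL1 on the plus strand at chr4:1012214-1012513.
FGFR3: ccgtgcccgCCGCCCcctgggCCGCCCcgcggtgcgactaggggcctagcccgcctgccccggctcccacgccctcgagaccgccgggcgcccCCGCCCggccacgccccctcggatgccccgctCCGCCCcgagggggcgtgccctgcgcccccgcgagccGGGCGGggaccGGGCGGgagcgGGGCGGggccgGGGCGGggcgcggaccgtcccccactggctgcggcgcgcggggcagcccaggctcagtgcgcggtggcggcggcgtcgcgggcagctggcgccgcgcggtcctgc
FGFBP1: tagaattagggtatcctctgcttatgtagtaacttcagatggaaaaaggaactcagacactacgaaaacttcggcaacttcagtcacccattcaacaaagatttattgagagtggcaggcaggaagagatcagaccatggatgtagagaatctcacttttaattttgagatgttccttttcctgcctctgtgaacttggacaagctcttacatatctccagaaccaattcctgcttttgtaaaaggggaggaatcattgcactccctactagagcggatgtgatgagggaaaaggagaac
FGF2: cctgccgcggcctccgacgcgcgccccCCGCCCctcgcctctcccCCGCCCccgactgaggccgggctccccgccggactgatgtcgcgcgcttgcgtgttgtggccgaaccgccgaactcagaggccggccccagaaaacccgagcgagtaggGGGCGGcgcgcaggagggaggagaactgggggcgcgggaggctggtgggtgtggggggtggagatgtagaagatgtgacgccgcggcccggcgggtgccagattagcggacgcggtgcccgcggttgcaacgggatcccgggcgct
FGFRL1: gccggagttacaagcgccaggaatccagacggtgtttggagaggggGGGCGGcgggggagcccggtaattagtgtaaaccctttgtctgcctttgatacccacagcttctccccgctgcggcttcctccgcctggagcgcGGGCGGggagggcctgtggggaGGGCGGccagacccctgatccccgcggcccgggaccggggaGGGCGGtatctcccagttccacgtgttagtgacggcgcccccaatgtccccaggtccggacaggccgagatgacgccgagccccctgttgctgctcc

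The FGFR3 window held 8 copies of GGGCGG, the FGFRL1 window 4, the FGF2 window 3 and the FGFBP1 window 0, and 45.0% of all 35116 promoters in the table held at least 1. In FGFR3, 4 copies on the minus strand lay between positions -241 and -125 and 4 on the plus strand between -88 and -55, counted from the gene's start. The share of G and C was 86.3% in FGFR3, 74.7% in FGF2, 68.3% in FGFRL1 and 42.0% in FGFBP1, against a median of 58.7% over all promoters. The AP-1 motif TGACTCA (4.95% of promoters), the TEAD motif GGAATG (14.0%) and the TATA motif TATAAA (11.5%) were searched on both strands, and none of these letters occurred in the 4 windows, so no match overlapped a GGGCGG. Windows with GGGCGG belonged to members of both directions. Of the 7 members with an entry (FGFR1 had none), 5 lie on chromosome 4, among them FGFRL1 and FGFR3, whose starts are 781 kb apart. The share of all promoters on chromosome 4 was not computed, so nothing is read from this count.

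Among the receptors, FGFR3 was far higher in crowded cultures. Its ratio to 50K, as the mean of both probe sets on the log2 scale, was 1.60, 2.17, 6.22, 9.99 and 15.9 on the 100K, 200K, 400K, 600K and 800K arrays. Every array was above the one before it. The slope was 1.00 ± 0.09 log2 units per doubling of the cells plated, which ranked 8 among 19775 genes. The error is the standard error of a line through 6 arrays, moderated in limma by the variances of all genes. Of the 3 steps that cover a full doubling, that from 200K to 400K was the largest, at 1.52 log2 units, against 0.67 from 50K to 100K and 0.44 from 100K to 200K. The last 2 steps, each less than a doubling, were both 0.68.

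The 2 FGFR3 probe sets differed in size and in shape. Probe set 204379_s_at stood at 1.69, 4.25, 11.3, 21.0 and 29.5 from 100K to 800K. Probe set 204380_s_at stood at 1.51, 1.11, 3.44, 4.75 and 8.62 at the same densities. Both were highest at 800K, and of the 3 full doublings that from 200K to 400K was the largest in each, at 1.40 and 1.63 log2 units, but from 100K to 200K the first was higher by 1.33 and the second lower, at −0.44. Their slopes were 1.27 ± 0.05 and 0.74 ± 0.14. Both identifiers carry the suffix that marks possible matches to related transcripts.

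**Figure D1:**
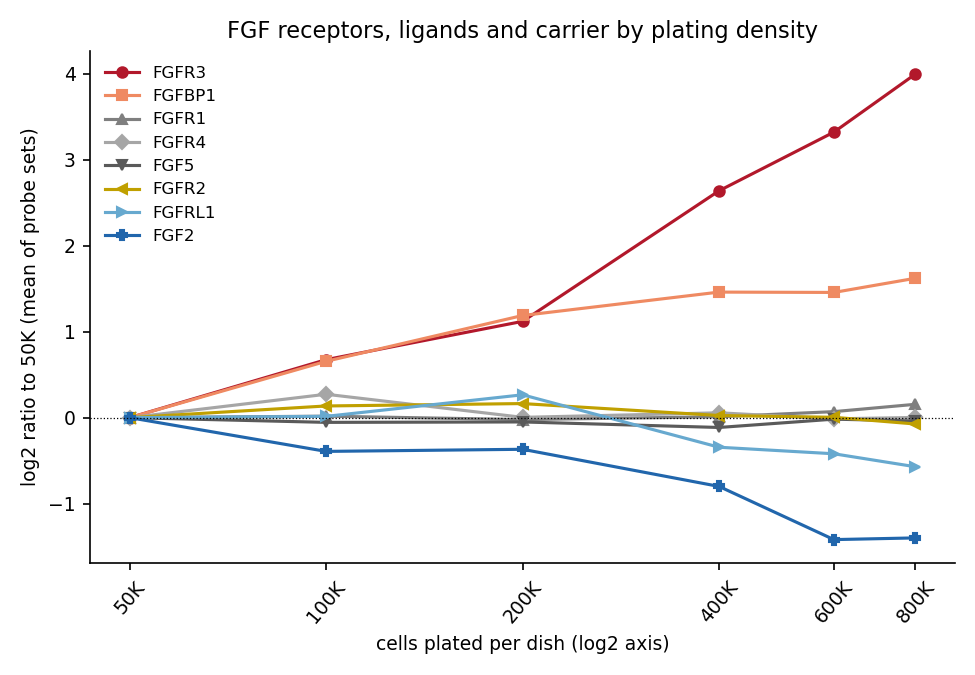
Log2 ratio to the 50K array (y axis, mean of the gene's probe sets) against cells plated per dish (x axis, log2 scale) for the 8 genes, 1 array per density. FGFR3 ends at 4.00 and FGFBP1 at 1.62, FGFRL1 ends at −0.57 and FGF2 at −1.40, and the other 4 end between −0.07 and 0.16.

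The other kinase receptors stayed near their 50K values as gene means. FGFR1, a receptor with many ligands that is known from mesenchymal cells, lay between 0.985 and 1.11 on the 5 other arrays. FGFR2, the receptor of stromal FGF7 and FGF10 in its epithelial form, lay between 0.950 and 1.12. FGFR4 stood at 1.21 at 100K and between 0.990 and 1.04 at the other densities. The slopes were 0.03 ± 0.02 for FGFR1, −0.03 ± 0.02 for FGFR2 and −0.03 ± 0.03 for FGFR4. Relative to FGFR1 on the same array, the ratio of FGFR3 changed by 14.3-fold between 50K and 800K, relative to FGFR2 by 16.8-fold and relative to FGFR4 by 15.9-fold. These are changes in the balance of transcripts, not ratios of their levels.

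Gene means hide probe sets of these receptors that scattered more widely. Of the 7 FGFR1 probe sets, 222164_at had the largest slope, 0.13 ± 0.03, and stood at 0.934, 0.970, 1.13, 1.34 and 1.35 from 100K to 800K. The remaining 6 FGFR1 probe sets had slopes between −0.03 and 0.08. Of the 11 FGFR2 probe sets, 5 had a positive and 6 a negative slope. Probe set 203639_s_at of FGFR2 was at 2.27 at 200K but between 0.733 and 0.939 on the 3 denser arrays, while the other FGFR2 probe sets reached at most 1.22 at 200K. Probe sets 203638_s_at and 208228_s_at of FGFR2 were lowest at 800K, at 0.646 and 0.673. All 4 FGFR4 probe sets were above 50K at 100K, between 1.10 and 1.31, and within 0.933 and 1.06 at 800K. Of the receptor probe sets, 2 of the FGFR1 and 2 of the FGFR2 probe sets lay within 0.05 log2 units of the array's median ratio on every array; over all 54613 non-control probe sets this held for 13.9%. The splice form that each probe set measures was not analysed here.

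FGFRL1 was lower in crowded cultures by 1 of its 2 probe sets. Probe set 223321_s_at stood at 0.911, 0.812, 0.617, 0.542 and 0.444 from 100K to 800K, each array below the one before it. Probe set 223648_s_at stood at 1.12 at 100K, 1.78 at 200K and between 1.01 and 1.03 on the 3 denser arrays. The gene mean was 0.673 at 800K, with a slope of −0.16 ± 0.06; the slopes of the single probe sets were −0.29 ± 0.03 and −0.03 ± 0.09. The direction of the gene mean rests on the first probe set. FGFR3 and FGFRL1, the kinase receptor with the steepest slope and the receptor without a kinase, diverged by 23.7-fold between 50K and 800K. That fold uses the gene means. At 800K the probe sets stood at 8.62 and 29.5 for FGFR3 and at 0.444 and 1.02 for FGFRL1, so single probe sets give other folds.

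**Figure D2:**
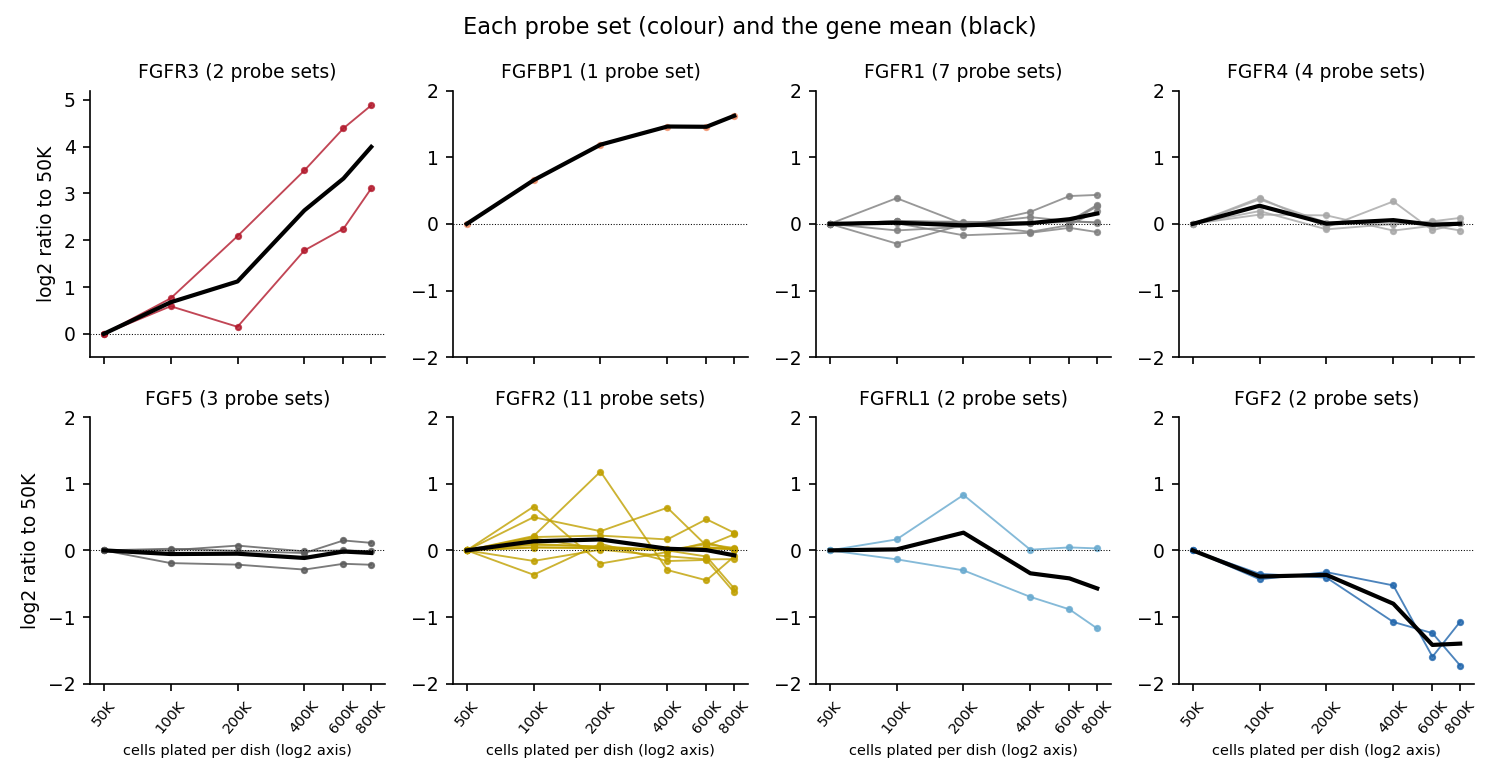
Log2 ratio to 50K (y axis) against cells plated per dish (x axis, log2 scale), with a thin coloured line for each probe set and a thick black line for the gene mean; the FGFR3 panel has its own y axis. Both probe sets of FGFR3 end above 0 and both of FGF2 below 0, those of FGFRL1 part at 200K (0.812 and 1.78 as ratios), and 1 FGFR2 probe set stands alone at 200K.

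Among the ligands, FGF2 was lower with density while FGF5 stayed near its 50K value. The FGF2 ratio was 0.762, 0.775, 0.575, 0.374 and 0.379 from 100K to 800K, which is 2.64-fold lower at 800K than at 50K. In the gene mean 100K was close to 200K, 400K lay below them, and 600K and 800K were close together and lowest. The quadratic term of FGF2 was −0.26 ± 0.15 and did not pass the threshold, so no departure from a line is shown. The slope was −0.36 ± 0.05. Probe set 204421_s_at of FGF2 was lower on each successive array, down to 0.302 at 800K. Probe set 204422_s_at of FGF2 was lowest at 600K, at 0.331, and stood at 0.477 at 800K, so the likeness of the 2 densest arrays in the mean comes from probe sets that crossed. FGF5 lay between 0.924 and 0.988 on the other 5 arrays, with a slope of −0.01 ± 0.01. Its 3 probe sets stayed between 0.819 and 1.11, and 210310_s_at was below 50K on each array, between 0.819 and 0.876.

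The carrier FGFBP1, measured by 1 probe set, was higher with density. Its ratio was 1.57, 2.28, 2.75, 2.74 and 3.08 from 100K to 800K. The 3 full doublings added 0.66, 0.53 and 0.27 log2 units, and the last 2 steps, each less than a doubling, −0.00 and 0.17. The slope was 0.39 ± 0.04 and the quadratic term −0.35 ± 0.06, against a quadratic term of 0.65 ± 0.14 for FGFR3; neither quadratic term passed the threshold. At 200K the gene mean of FGFR3 (2.17) was close to FGFBP1 (2.28), but the FGFR3 probe sets stood on either side, at 4.25 and 1.11. At 800K FGFR3 stood at 15.9 and FGFBP1 at 3.08. Relative to FGF2, a ligand it binds, FGFBP1 changed by 2.07-fold at 100K, 4.79-fold at 400K and 8.11-fold at 800K.

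**Figure D3:**
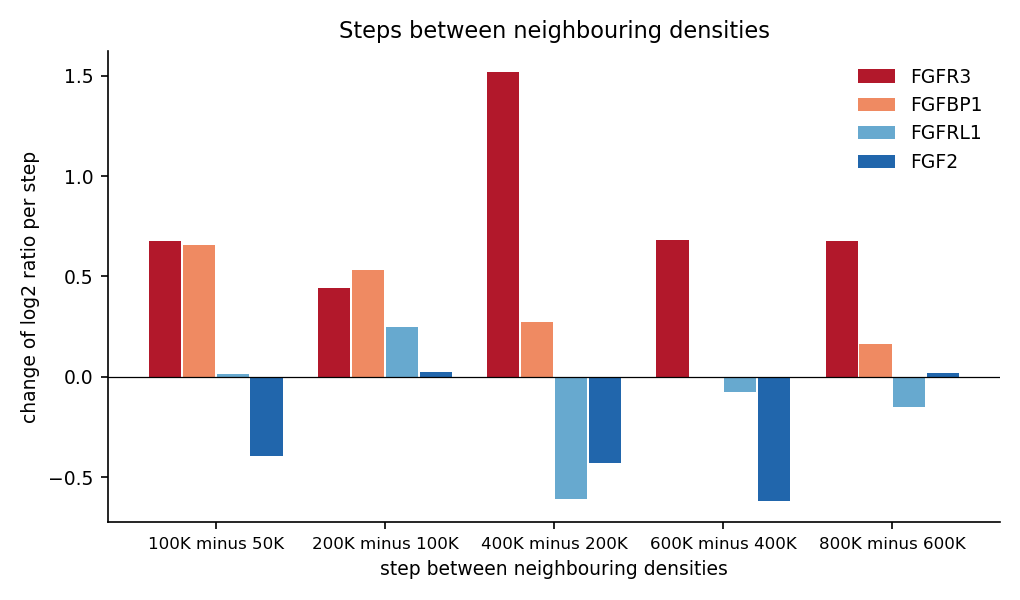
Change of the log2 ratio (y axis) between each array and the next sparser one (x axis) for FGFR3, FGFBP1, FGFRL1 and FGF2; bars start at 0, there are no replicates, and the last 2 steps cover less than a doubling of the cells. FGFR3 has its tallest bar, 1.52, from 200K to 400K, where FGFRL1 has its lowest, −0.61. For FGFRL1 this step was −0.40 in 223321_s_at and −0.82 in 223648_s_at, which came down from 1.78 at 200K. For FGFR3 it was 1.40 in 204379_s_at and 1.63 in 204380_s_at, which started from 1.11 at 200K. FGFBP1 has its tallest bar, 0.66, from 50K to 100K.

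Ordered by the gene mean at 800K, FGFR3 came first, followed by FGFBP1, FGFR1 (1.11), FGFR4 (1.00), FGF5 (0.974), FGFR2 (0.950), FGFRL1 and FGF2. FGFR3 stood apart from FGFBP1, and FGFBP1 from FGFR1, by more than the spread of their probe sets, which at 800K was 8.62 to 29.5 for FGFR3 and 0.918 to 1.35 for FGFR1 (FGFBP1 has 1 probe set). From FGFR1 downward the probe sets of each gene overlapped those of the next, FGFRL1 (0.444 to 1.02) and FGF2 (0.302 to 0.477) included. Probe sets of a gene share the RNA and the array and are not replicates.

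In the fit across all genes, 3 of the 8 passed an adjusted p of 0.05, FGFR3 and FGFBP1 with a positive and FGF2 with a negative slope; without the 200K array FGFRL1, with a negative slope, made it 4. The background was 21.3% of all genes, 8.93% rising and 12.4% falling. At 800K 2 of the 8 were at least 2-fold above 50K and 1 at least 2-fold below it, where 2.25% and 2.69% of all genes were. With each probe set fitted alone 5 of 32 passed, both of FGFR3 and 1 each of FGFBP1, FGF2 and FGFRL1, against 13.9% of 54613 probe sets. Since the genes were chosen on this contrast, nothing is read from these shares. For the quadratic term 0 of 8 and 0 of 19775 genes (0%) passed in limma, and 2496 of the 19775 had an unadjusted p under 0.05. That is more than the threshold alone would give without curvature, so the lack of adjusted calls does not show that the profiles are straight. The median ratio of the 8 genes at 800K was 0.988, against 1.02 for all genes.

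The median ratios to 50K lay between 1.01 and 1.04. The processing notes name RMA, which normalizes the arrays, so medians near 1 say little about the quality or input of an array. The 3′ minus 5′ difference of control probe sets is a sign of RNA quality. From ratios it is known only relative to the 50K array, so it cannot show whether the RNA was intact. Relative to 50K, the difference of GAPDH lay between −0.05 and 0.07 log2 units. That of ACTB was 0.17, 0.22 and 0.30 on the 3 densest arrays in order of density, and its part in the values was not tested. Ratios cannot show whether a marker gene is present, so the label of the cells was not checked by level. Of the measured markers, 2 of 4 basal ones rose and 1 fell, and 1 of 5 luminal, 1 of 5 fibroblast, 2 of 4 endothelial and 1 of 3 leukocyte markers rose (median slopes 0.03, 0.02, −0.01, 0.06 and 0.03), with ratios at 800K of 0.717 to 3.01, 0.744 to 1.75, 0.907 to 1.28, 1.01 to 1.73 and 1.02 to 5.66; their part in the values was not tested. In bulk RNA, fewer cells with a transcript and less of it per cell cannot be told apart.

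Around these genes, 88 of 96 listed genes of the pathway were measured, and 15 rose, 14 fell and 59 did not pass (limma slope, Benjamini-Hochberg adjustment over all genes, where 21.3% of all genes passed). Their median slope was 0.00, as was that of all genes. The other FGF ligands gave no call: 0 of 20 passed in limma, 1 had an unadjusted p under 0.05, and their ratios at 800K lay between 0.945 for FGF13 and 1.18 for FGF11.

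Coreceptors and heparan sulfate genes moved both ways: 6 of 30 rose, 4 fell and 20 did not pass (median slope 0.00). SULF2, an enzyme that removes sulfate from heparan sulfate outside the cell, rose, with ratios of 1.51, 2.14, 2.68, 3.05 and 3.94 from 100K to 800K (slope 0.46 ± 0.03, adjusted p = 0.000605). HPSE, the heparanase that cuts these chains, fell to 0.400 at 800K (slope −0.28 ± 0.04, adjusted p = 0.00542). The FLRT proteins are transmembrane partners of FGF receptors, and 2 of them moved in opposite directions. FLRT2 fell, with ratios of 0.621, 0.460, 0.342, 0.329 and 0.248 from 100K to 800K (adjusted p = 0.00101). FLRT3 rose to 3.34 at 800K (adjusted p = 0.0144), a call lost without the 100K array (0.0552) or the 600K array (0.0525). The remaining calls, named after their values were seen, were the proteoglycan genes SDC1, SDC4, GPC6 and HSPG2, between 1.80 and 1.87 at 800K, which rose, and the coreceptor NRP1 (0.729) and the chain-building enzyme EXT2 (0.716), which fell. The calls of SDC4 and NRP1 were each lost without any 1 of 3 arrays (adjusted p up to 0.106 and 0.142). With the 3 highest set against the 3 lowest densities, SULF2 (adjusted p = 0.0632), FLRT2 (0.0625) and HPSE (0.0590) did not pass. FGFBP2 and FGFBP3, relatives of FGFBP1, did not pass and stood at 1.01 and 0.829 at 800K.

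Changes among the adaptors and the kinase cascade were small: 3 of 15 rose, 4 fell and 8 did not pass (median slope −0.00). SOS2, an exchange factor of RAS, rose to 1.44 at 800K (slope 0.15 ± 0.02, adjusted p = 0.0112, and 0.0517 without 800K). CBL, a ubiquitin ligase that turns over active receptors, fell to 0.690 (adjusted p = 0.00222) and the adaptor GRB2 to 0.733 (adjusted p = 0.00597). The GRB2 call was lost without the probe sets whose suffix marks possible matches to related transcripts (slope −0.04, adjusted p = 0.192). The ERK kinase MAP2K1 fell to 0.768 (adjusted p = 0.0215), a call lost without 50K (0.152), 100K, 600K or 800K, on the cell number itself (0.106) and for the 3 highest against the 3 lowest densities (0.256). The other calls, named after their values were seen, were the phosphatase PTPN11 (0.764), which fell, and the adaptor SHC1 (1.29) and the ERK gene MAPK3 (1.25), which rose; each was lost without at least 4 of the 6 arrays in turn, with adjusted p up to 0.151, 0.176 and 0.159. FRS2, the docking protein of FGF receptors, was not analysed here.

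Known targets and feedback inhibitors of the cascade split by gene: 5 of 19 rose, 6 fell and 8 did not pass (median slope −0.01). DUSP6, a phosphatase of ERK that FGF signals induce, rose with ratios of 1.12, 1.12, 1.65, 2.15 and 2.49 from 100K to 800K (slope 0.33 ± 0.05, adjusted p = 0.00856). EGR1, an early response transcription factor, rose to 3.58 at 800K (slope 0.44 ± 0.10, adjusted p = 0.0267), and its call was lost without 100K (0.0802), 600K (0.0806) or 800K (0.0924). FOSL1, an AP-1 subunit, fell to 0.394 (adjusted p = 0.00615) and IER3, an early response gene, to 0.397 (adjusted p = 0.000922). Related inhibitors, named after their values were seen, parted: SPRY2 rose to 1.80 and SPRY1 to 1.41, while SPRY4 fell to 0.611, DUSP4 to 0.509 and DUSP5 to 0.607. The cyclin CCND1 fell to 0.478, and the receptor-binding inhibitor IL17RD rose to 1.26, a call lost without any array but 50K (adjusted p up to 0.163). The calls of SPRY1 and SPRY4 were lost without 50K (adjusted p 0.196 and 0.148) and without several other arrays, and that of DUSP5 without 50K (0.0869). ETV4 and ETV5, transcription factors that FGF signals induce, did not pass and stood at 1.02 and 0.805 at 800K.

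ESRP1, a splicing factor that favours the epithelial form of FGFR2, rose with ratios of 1.10, 1.40, 1.87, 2.14 and 2.25 from 100K to 800K (slope 0.32 ± 0.02, adjusted p = 0.000866). It was the 1 called gene of 4 measured splicing regulators (median slope −0.03); RBFOX2, PTBP1 and HNRNPM did not pass and stood between 0.858 and 0.944 at 800K. ESRP2 was not analysed here.

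**Figure D4:**
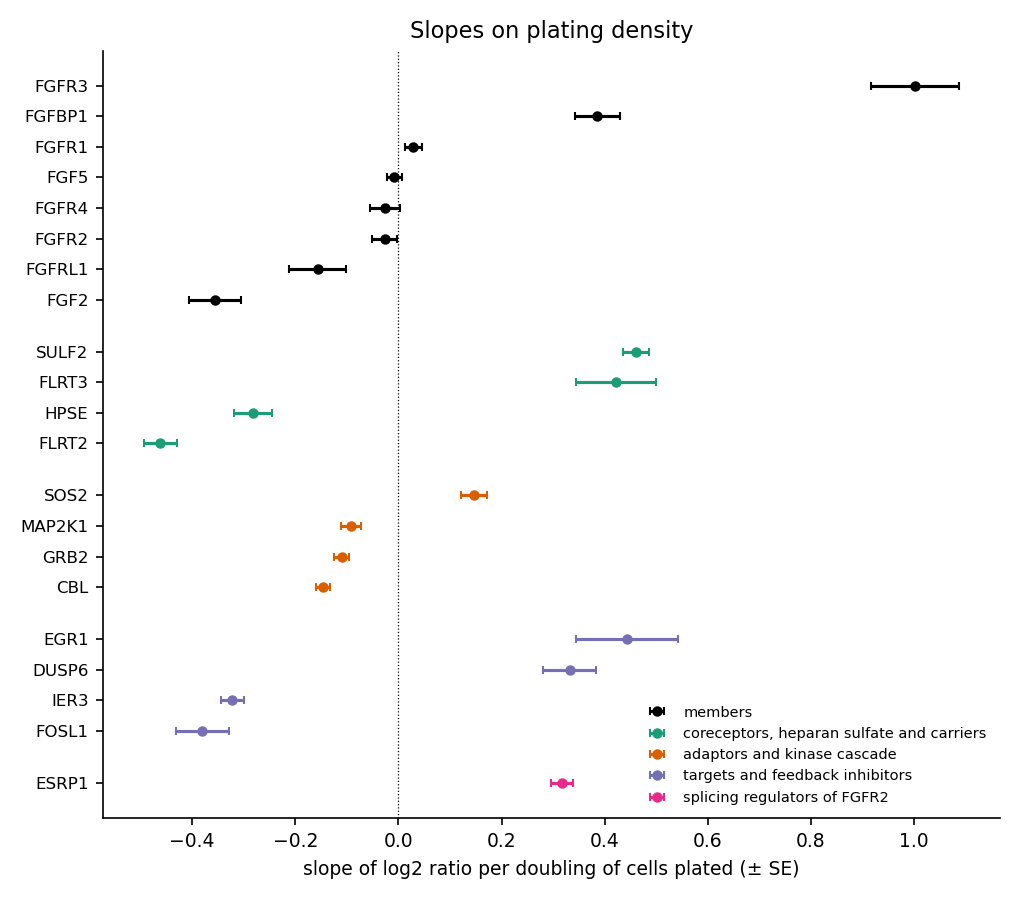
Slope of the log2 ratio per doubling of the cells plated (x axis, points with ± moderated SE, 6 arrays). The 8 genes are in black and the pathway genes named by rule are coloured by list. FGFR3 (1.00) stands right of all others shown, and the lists of coreceptors, of the kinase cascade and of targets each have points on both sides of 0.

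The genes most like the 3 members with a span of 1 log2 unit or more were found by the Euclidean distance between log2 profiles over the 6 arrays, as a description. For FGFR3 they were the lipoxygenase ALOX15B (distance 0.49), the lipid transporter ABCA6 (0.83) and LAPTM5 (0.84), with ratios at 800K of 15.1, 10.9 and 14.0. For FGFBP1 they were IFITM2 (0.22), RHOV (0.26) and GRB7 (0.26), between 3.13 and 3.30 at 800K. For FGF2 they were GPRC5A (0.19), the origin recognition subunit ORC1 (0.26) and RNASEH1-DT (0.27), between 0.346 and 0.365 at 800K. All of these arrays are shared between the genes compared, and no member was among the 3 nearest of another. The distances were taken from gene means. Those of FGFR3 average probe sets that differ in size and shape, and those of FGF2 average probe sets that crossed.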

How the data were processed

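Total RNA of MCF10A cells at 6 plating densities, from an input of 200 ng, was hybridised to 6 arrays, 1 per density, per the labels. The submitters' processing notes name RMA, which corrects background, normalizes and summarises probes. The deposited values are linear ratios with the 50K array as denominator, where 54675 of 54675 values equal 1 within 1e-06. The sources used here do not describe that division or give array intensities, so signal over background is not known, and a fall towards it would be understated. They do not say whether an array holds 1 dish or several.

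The log2 of each ratio was averaged over all probe sets with 1 gene symbol in the platform annotation (41091, for 19775 genes; 62 control probe sets, 1801 with several symbols and 11777 unlisted, classes that overlap, were left out). Slopes on log2 of the cells plated were fitted over all genes with limma 3.58.1 in R 4.3.3 (lmFit, eBayes, 4 residual degrees of freedom, two-sided, Benjamini-Hochberg, threshold 0.05), and curvature as the quadratic term of an orthogonal polynomial. Errors after ± are moderated standard errors, in which eBayes draws each variance towards those of all genes, or all probe sets, fitted together. With no replicates they mix dish variation, noise and departure from a line. On simulated data for the density trend over 19775 genes, 82% of 100 genes changed 2-fold and 98% of 100 changed 4-fold were recovered. Of the unchanged genes 9 were called. The simulated noise was normal and independent between genes, and the changes followed a line. Effects of a dish or array shared by genes were absent, and far fewer genes changed than the 4220 called in the data. The simulation therefore does not give the recovery or the false calls in the data.

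The members and pathway lists were chosen with earlier results of these data known. The genes named are the members, up to 4 called genes with the largest slopes of each list, and the 3 nearest profiles of each member that spans 1 log2 unit or more; others were named after their values were seen. Alternatives left out probe sets ending in _x_at or _s_at, centred the arrays, used the cell number or its rank, set the 3 highest against the 3 lowest densities, used robust variances, left out each array, and fitted each probe set alone.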

Additional observations from a re-analysis of the deposited data

How the results depend on the processing

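The members were chosen on this contrast, so their counts support nothing. Of the 8 members, 3 passed the slope threshold, and also 3 without 50K, 100K, 400K, 600K or 800K, with centred arrays, on ranks and with robust variances; the count was 4, with FGFRL1 added, without 200K and on the cell number itself, 4 genes with each probe set alone, 3 with FGFRL1 in place of FGFBP1 for the 3 highest against the 3 lowest densities, and 1 without probe sets ending in _x_at or _s_at, since all probe sets of FGFR3, FGF2 and FGFRL1 carry those endings and gave no value there. Without 1 array the fitted change from 50K to 800K lay between 3.71 and 4.57 for FGFR3, 1.20 and 1.65 for FGFBP1, −1.56 and −1.28 for FGF2 and −0.95 and −0.50 for FGFRL1 (log2). FGFR4 (−0.10 ± 0.12, and 0.01 without 100K) and FGF5 (−0.03 ± 0.06, but 0.02 without 50K and 0.11 ± 0.08 without the marked probe sets) changed sign. The 4220 called genes became 2664 without the marked probe sets, 2259 for the 3 highest against the 3 lowest densities, and 2388 (without 800K) to 3909 (without 200K) with 1 array left out; those without 600K numbered 2447. The 29 called pathway genes became 18 without the marked probe sets, 16 for the 3 highest against the 3 lowest densities, and 18 (without 100K) to 27 (without 200K) with 1 array left out, with 19 without 600K or 800K. Genes whose probe sets are all marked gave no value without them, so the counts 2664 and 18 mix untested genes with changed calls. Of the named pathway genes, EGR1 and IER3 were untested there. Centring gave 1530 rising and 2471 falling genes, against 1765 and 2455. Curvature gave 0 calls in each setting run. Of 154 refits of the named pathway genes, 138 kept the call and 16 lost it with the sign kept. No paired analysis was possible because each density has 1 array. Depth is unknown for ratios.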
